A study of Homo sapiens with 12 samples.

Results

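The genes of the proteasome and of the factors that assemble it were described across an RNA-seq experiment on Hs 578T cells. Every symbol in the count tables that begins with PSM, continues with a letter from A to G and ends in a number was taken. The rule used symbols and no measured values, but it was set with earlier results of these data known. This gave 48 of the 55242 genes in the tables: 19 genes of the core particle (8 PSMA and 11 PSMB), 20 genes of the regulatory particle (6 PSMC and 14 PSMD), 5 genes of activators and an inhibitor (4 PSME and PSMF1) and 4 assembly chaperones (PSMG). Of these, 46 had enough reads to be tested, whereas PSMA8, a testis form of a PSMA subunit, had no read in any library and PSMB11, a thymus form of a PSMB subunit, had 1 read in 1 library.

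The proteasome degrades proteins that carry ubiquitin. PSMA subunits form the outer rings of its barrel-shaped core and PSMB subunits the inner rings, in which PSMB5, PSMB6 and PSMB7 are the catalytic subunits of most cells and PSMB8, PSMB9 and PSMB10 replace them in the immunoproteasome. PSMC subunits are the ATPases that unfold substrates, some PSMD subunits recognise them or remove ubiquitin, and PSMG proteins guide the building of the core. The PSMD genes, counted here with the regulatory particle by symbol, also include chaperones of its base such as PSMD9 and PSMD10. Proteasome genes are known targets of the transcription factor NFE2L1, and part of them is also known to respond to its relative NRF2, which the proteasome itself degrades under the control of KEAP1.

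Hs 578T is a human triple-negative breast cancer (TNBC) line of the mesenchymal stem-like subtype. The cells had been transduced with a lentivirus for GFP, the control, or for full-length NRF2, and were kept for 8 h in medium to which 0.8 mM L-cystine (Cyss) was added or from which it was left out. The 4 groups (GFP with Cyss, GFP without Cyss, NRF2 with Cyss, NRF2 without Cyss) hold 3 libraries each. All groups share the parental line, the transduction and a medium that otherwise contained methionine, glutamine and serum, and NRF2 in these cells came from a transgene and the cells' own gene together.

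The libraries held between 27250993 and 44596870 reads on genes. The transcript of NFE2L2, the gene of NRF2, was at 109 to 115 CPM (reads of a gene as a share of a library's reads, scaled by TMM) in GFP cells with Cyss, 134 to 139 without Cyss, 195 to 206 in NRF2 cells with Cyss and 216 to 251 without Cyss, so that NRF2 libraries were above GFP libraries in each medium. The mesenchymal markers VIM and FN1 had medians of 4597 and 24938 CPM, whereas the epithelial markers CDH1, EPCAM, CLDN3 and CLDN7 and the receptors ESR1 and PGR stayed below 1 CPM in every library, although the labels call the cells epithelial. The epithelial keratin KRT18 was at 22.9 to 43.7 CPM and the receptor ERBB2 at 34.4 to 41.1 CPM. Of the markers of other cells, CD3E was at 0, CD68 was at most 0.590 CPM and PTPRC at most 1.59 CPM. Replicate 1 of NRF2 cells without Cyss stood apart, with 7.84% of reads outside genes against 5.82 to 6.69% in the other libraries, and the counts of called proteasome genes and the called ones shown by library are also given without it. Genes of the related lists are given with it only. Nothing says that replicates were separate cultures, so p-values measure only the spread between these libraries, which may be technical.

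Proteasome genes held 0.569, 0.591 and 0.584% of reads in GFP cells with Cyss, 0.572, 0.584 and 0.574% without Cyss, 0.568, 0.570 and 0.577% in NRF2 cells with Cyss and 0.509, 0.529 and 0.555% in NRF2 cells without Cyss. By this share the last group lay below all other libraries, and its replicate 1 was the lowest. With TMM scaling, the summed CPM of the proteasome genes were 5113, 5425 and 5748 in NRF2 cells without Cyss, against 5592 to 5659 in NRF2 cells with Cyss, 5716 to 5819 in GFP cells without Cyss and 5711 to 5874 with it. On this scale replicates 1 and 2 were below all other libraries, whereas replicate 3 lay above NRF2 cells with Cyss and among the GFP libraries. These are shares of the RNA in a bulk sample, in which less RNA per cell and fewer cells of a kind cannot be told apart.

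Compared per length (CPM per kilobase of the gene's merged exons, mean ± SD of 3 libraries, GFP cells with Cyss), PSMD2, a scaffold subunit of the regulatory particle, was the highest at 182 ± 3.65, followed by PSMA7 at 160 ± 5.72 and PSMB4 at 96.0 ± 3.59. PSMB5, PSMB7 and PSMB6 followed at 87.8 ± 3.60, 82.3 ± 2.60 and 76.1 ± 3.06. In that order PSMB5 and PSMB7 overlapped within 1 SD of each, and PSMB7 and PSMB6 did not. Per kilobase of one reference transcript instead of all exons, the levels of PSMD2 and PSMA7 were 310 and 292, again the highest 2. On that scale PSMB7, PSMB6 and PSMB5 were at 150, 134 and 130, so their order depended on the length used. The immunoproteasome genes PSMB8, PSMB9 and PSMB10 were at 2.42 ± 0.233, 1.17 ± 0.147 and 2.26 ± 0.106 per kilobase of merged exons, far below the catalytic subunits they replace.

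PSMC1 and PSMA6 were also low, at 0.847 ± 0.0594 and 1.69 ± 0.0607 per kilobase of merged exons, although both encode constitutive subunits. Their counts are uncertain. The pseudogene PSMC1P1 matched the PSMC1 transcript at 99.9% of 1320 aligned bases and was counted at a mean of 68.7 CPM over the 12 libraries, and 76.1% of PSMC1 exon bases were overlapped by another gene, NRDE2 on the opposite strand. PSMA6P1 matched PSMA6 at 97.4% of 741 bases with 37.1 CPM, and PSME2P2 matched PSME2 at 95.9% of 679 bases with 20.6 CPM. How reads were split between these genes and their copies was not tested. After PSMC1, the largest overlaps with other genes were 39.4% of PSMB10, 31.2% of PSMD7, 29.7% of PSMA2 and 26.7% of PSMA1 exon bases.

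**Figure D1:**
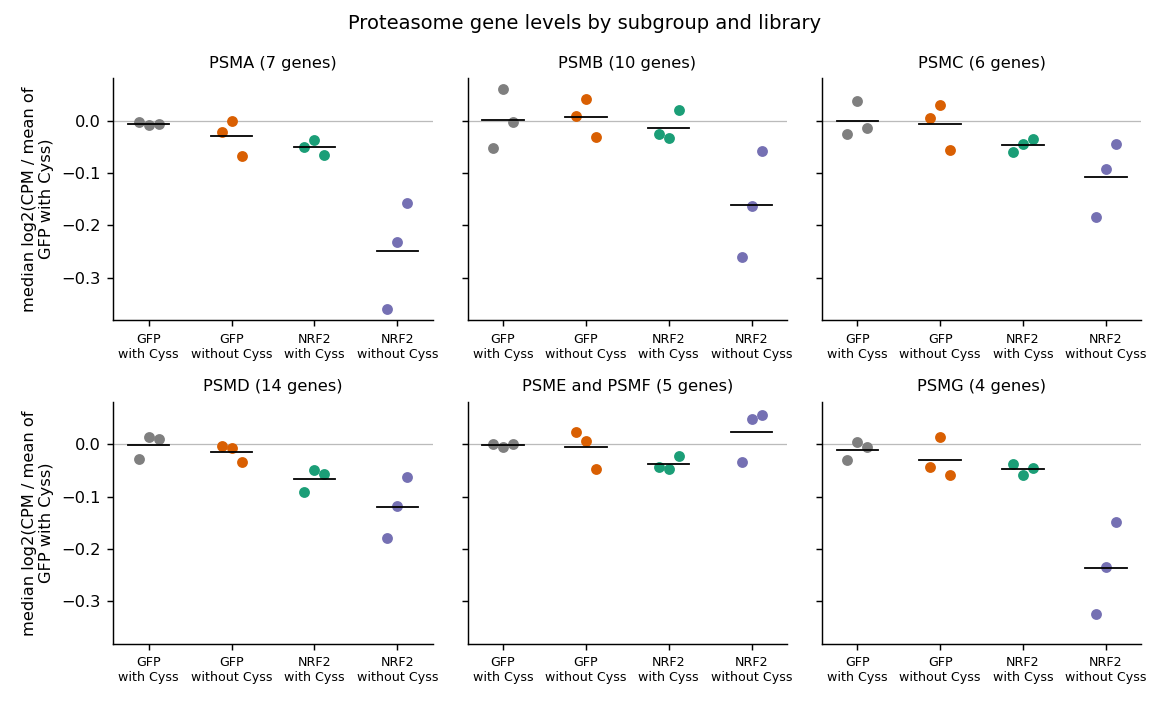
Each point is 1 library and gives the median, over the genes of a subgroup, of log2 of the CPM relative to the gene's mean in GFP cells with Cyss (y axis), by group (x axis), and the black line is the mean of 3 libraries. For PSMA, PSMB and PSMG, every library of NRF2 cells without Cyss lay below every library of the other groups. For PSMB the nearest were close, at -0.0586 in replicate 3 of that group and -0.0514 in replicate 1 of GFP cells with Cyss.

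The first comparison asked how the control cells respond to Cyss deprivation. In GFP cells no proteasome gene was called: 0 of 46 were higher and 0 lower without Cyss by the quasi-likelihood test of edgeR at a Benjamini-Hochberg adjusted p under 0.05, against 1.85% of all 17452 genes tested that were higher and 1.96% that were lower. DESeq2's Wald test also called 0, and 5 genes had an unadjusted p under 0.05. The median log2FC of the 46 genes was -0.01, the same as that of all genes (-0.01), and single genes ran from -0.16 (PSMC6, an ATPase of the base) to 0.09 (PSMD9, a chaperone of the base). The 95% intervals of all 46 genes lay within 0.32 on either side of 0, from -0.28 for PSMB10 to 0.30 for PSMB9, so changes beyond that size were outside the range the data allowed for each gene taken alone. Of the 46 genes, 2 were above and 7 below without overlap between the groups, against 10.8 and 13.1% of all genes.

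The same question was put to cells with exogenous NRF2. Without Cyss, 14 of the 46 genes fell and 2 rose, against 9.66% of all 17266 genes tested that were lower and 12% that were higher. In the PSMA group 6 of 7 genes were lower (PSMA1, PSMA2, PSMA3, PSMA4, PSMA5 and PSMA7), with a median log2FC of -0.20. In the PSMB group 3 of 10 were lower (PSMB4, PSMB8 and PSMB9, median -0.15), and in the PSMG group 2 of 4 (PSMG1 and PSMG3, median -0.21). The genes counted with the regulatory particle held 1 lower PSMC gene of 6 (PSMC2) and, of 14 PSMD genes, 1 lower (PSMD10, a chaperone) and 1 higher (PSMD2). Their median was -0.06 over both. Among the 4 PSME genes PSME2 was lower and PSME4 higher, and PSMF1, the inhibitor, was not called (log2FC 0.12, adjusted p = 0.0814 by edgeR's test).

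Changes were small. The median log2FC of the 46 genes was -0.10 against -0.01 for all genes, and 37 of the 46 had a negative sign. At an adjusted p under 0.1 with a log2FC above 0.32 in size, only PSMB9 and PSMG1 were called, both lower, against 5.11% of all genes lower and 6.83% higher by that rule. Of the 46 genes, 22 lay below and 4 above without overlap between the groups, against 18.7 and 18.7% of all genes.

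**Figure D2:**
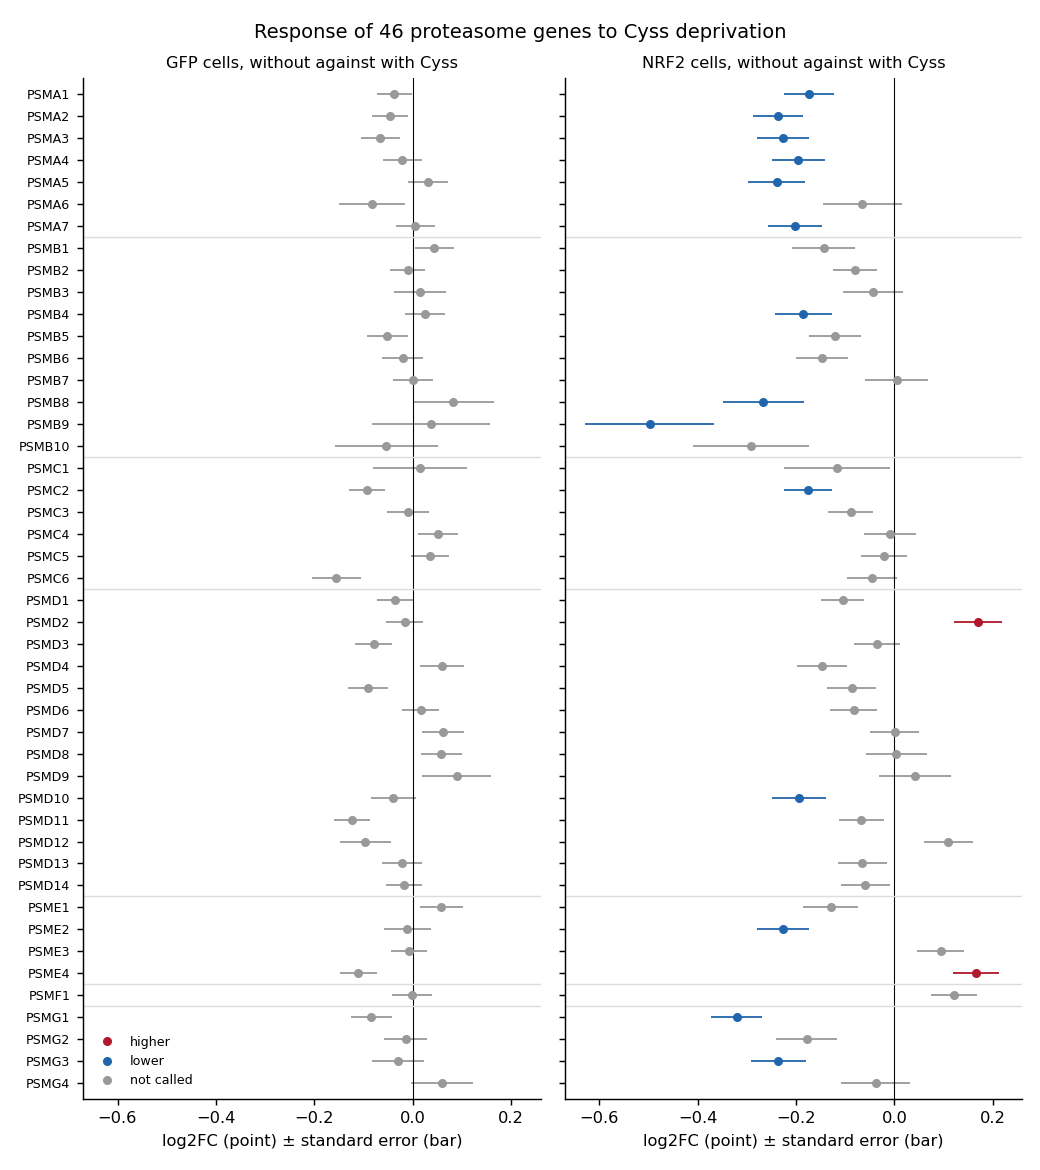
Points give the log2FC without against with Cyss (x axis) of 46 proteasome genes (y axis) in GFP cells (left) and NRF2 cells (right), bars the standard error, blue lower, red higher and grey not called at an adjusted p under 0.05. No gene was called on the left, and 14 lower and 2 higher genes stand on the right, with 6 of 7 PSMA genes among the lower.

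PSMG1 (chromosome 21, 40546695 to 40555414 on GRCh37, minus strand) is a chaperone that pairs with PSMG2 to start the outer ring of the core. It was at 79.5, 80.1 and 85.9 CPM in GFP cells with Cyss, 78.8, 77.3 and 76.7 without Cyss, 78.4, 78.1 and 75.5 in NRF2 cells with Cyss and 57.3, 62.5 and 65.4 in NRF2 cells without Cyss. The last group lay below all other libraries, and GFP cells with Cyss lay above GFP cells without Cyss and NRF2 cells with Cyss, which overlapped. Cyss deprivation lowered PSMG1 in NRF2 cells to a log2FC of -0.32 with standard error 0.0523 (Benjamini-Hochberg adjusted p = 0.000370 by edgeR's test), a change of -19.9%. Without replicate 1 of NRF2 cells without Cyss, the log2FC was -0.28 and the call held.

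PSMA2 (chromosome 7, 42956427 to 42971784, minus strand), a subunit of the outer ring, was at 151, 149.6 and 152 CPM in NRF2 cells with Cyss and at 118, 131 and 134 without Cyss, while GFP cells ran from 152 to 161 CPM over both media. NRF2 cells without Cyss were again below all other libraries, and the log2FC was -0.24 (standard error 0.0503, adjusted p = 0.00316 by the same edgeR test). Other genes, on both strands, overlapped 29.7% of PSMA2 exon bases. PSMA3, another outer ring subunit, was at 99.7, 100.7 and 96.1 CPM with Cyss and 78.7, 83.1 and 91.0 without in NRF2 cells (log2FC -0.23), while GFP cells ran from 91.3 to 98.5 CPM. For PSMA3 the deprived NRF2 cells did not overlap the GFP libraries either, although 91.0 and 91.3 CPM were close.

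PSME2, a subunit of the interferon-inducible activator, was at 49.3, 47.9 and 46.8 CPM with Cyss and 39.7, 39.6 and 43.3 without in NRF2 cells (log2FC -0.23, adjusted p = 0.00595 by edgeR's test). PSMG3, a chaperone that pairs with PSMG4, was at 40.8, 36.8 and 38.3 CPM with Cyss and 32.4, 31.8 and 33.8 without (log2FC -0.24). The media did not overlap in NRF2 cells for either gene. The GFP libraries, which ran from 45.5 to 49.9 CPM for PSME2, lay above the deprived NRF2 cells and overlapped NRF2 cells with Cyss for both genes.

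The 2 genes that rose lie outside the core. PSME4 (chromosome 2, 54091206 to 54198130, minus strand) encodes a large nuclear activator that caps the core without ATP. Its levels were 189, 177 and 183 CPM in GFP cells with Cyss, 170.1, 168 and 174 without Cyss, 167, 177 and 172 in NRF2 cells with Cyss and 199, 189 and 190.2 in NRF2 cells without Cyss. In NRF2 cells the deprived libraries were the higher ones, with a log2FC of 0.17 (standard error 0.0469, adjusted p = 0.0192 by edgeR's test), and in GFP cells they were the lower ones without passing the test (log2FC -0.11, adjusted p = 0.128). PSMD2, named because so few genes rose, went from 887 ± 12.9 to 995 ± 69.3 CPM (SD, n = 3 each) in NRF2 cells (log2FC 0.17). When libraries were left out in turn, its log2FC ran from 0.12 to 0.21. PSMD2 was then called in 1 of 6 fits, the one without replicate 1 of NRF2 cells without Cyss (log2FC 0.21). Over all alternatives it was called in 10 of 17 fits.

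**Figure D3:**
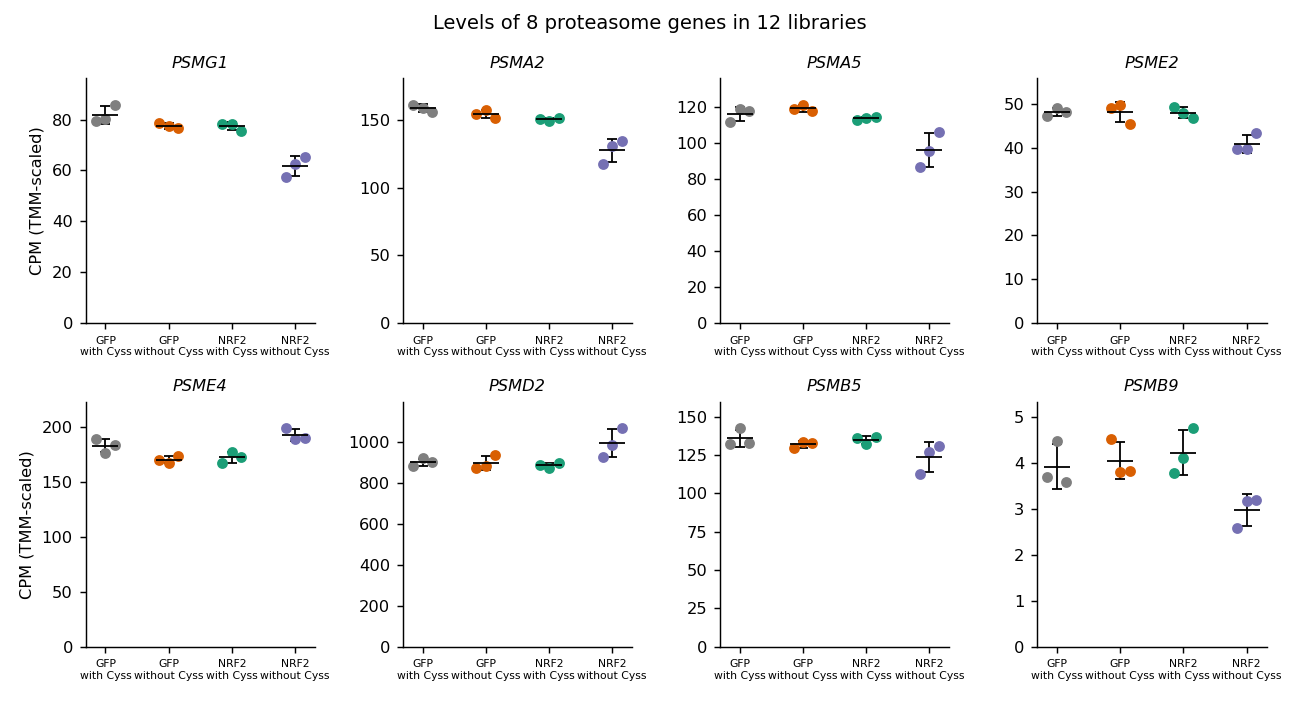
Points give the CPM scaled by TMM (y axis, from 0) of 8 genes in each of 12 libraries by group (x axis), with the mean and SD of 3 libraries in black. NRF2 cells without Cyss lay below the other groups for PSMG1, PSMA2, PSMA5, PSME2 and PSMB9, whereas PSME4 was at 189 CPM or more in all 3 of them and PSMB5 of NRF2 cells without Cyss overlapped GFP cells without Cyss and lay below both groups with Cyss.

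The count of lower genes depended on single libraries and on scaling. It was 7, 5 and 5 without replicates 1, 2 and 3 of NRF2 cells with Cyss, and 12, 10 and 19 without replicates 1, 2 and 3 of NRF2 cells without Cyss, and the count of higher genes ran from 0 to 3 over the same fits. It was 0 without replicate 1 or 3 of NRF2 cells with Cyss, 1 without replicate 2 of either NRF2 group and 3 without replicate 1 of NRF2 cells without Cyss. Scaled by library size only, 26 genes were lower and 0 higher. Shares of all genes called in these fits are not given, and whether such moves are particular to proteasome genes was not tested. PSMG1 was called in all 17 fits other than the main one, and PSMA2, PSMB9 and PSME2 in 16 of 17. Without replicate 1 of NRF2 cells without Cyss, the log2FC was -0.19 for PSMA2, -0.19 for PSMA3, -0.21 for PSME2, -0.24 for PSMG3, -0.41 for PSMB9 and 0.14 for PSME4, each still called. PSMB4 and PSMB8 were then not called (log2FC -0.13 and -0.23, adjusted p = 0.0607 and 0.0686 by edgeR's test).

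Promoter sequences are shown for 4 genes that led the comparisons, as context for readers who ask which elements stand upstream of them. RefSeq promoter windows on GRCh38.p14 (250 bases before to 50 bases after a gene's start) were found for 42 of the 48 genes, 51 windows in all, and the 250 bases before the start are printed 5′ to 3′ on the gene's strand. Capitals mark the core of the antioxidant response element that NRF2 binds (TGACNNNGC), the CCAAT box or the ETS site (CCGGAAG), searched on both strands, and no motif of these contains another.
PSMG1 (chr21:39183452-39183701, minus strand): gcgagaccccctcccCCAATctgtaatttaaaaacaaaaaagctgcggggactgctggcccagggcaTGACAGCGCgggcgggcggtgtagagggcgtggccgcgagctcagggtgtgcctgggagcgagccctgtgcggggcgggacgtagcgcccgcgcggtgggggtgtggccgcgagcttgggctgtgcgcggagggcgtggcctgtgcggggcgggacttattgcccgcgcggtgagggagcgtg
PSMA2 (chr7:42932175-42932424, minus strand): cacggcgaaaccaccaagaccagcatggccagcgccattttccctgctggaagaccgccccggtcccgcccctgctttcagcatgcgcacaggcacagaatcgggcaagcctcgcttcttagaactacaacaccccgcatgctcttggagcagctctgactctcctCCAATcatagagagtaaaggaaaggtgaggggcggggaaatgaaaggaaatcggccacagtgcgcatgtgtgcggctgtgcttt
PSMA5 (chr1:109426449-109426698, minus strand): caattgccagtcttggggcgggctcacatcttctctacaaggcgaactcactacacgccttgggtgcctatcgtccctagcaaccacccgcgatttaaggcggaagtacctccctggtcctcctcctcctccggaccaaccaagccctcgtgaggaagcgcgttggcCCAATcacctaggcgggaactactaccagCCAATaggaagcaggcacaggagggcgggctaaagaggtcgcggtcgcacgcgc
PSME4 (chr2:53970994-53971243, minus strand): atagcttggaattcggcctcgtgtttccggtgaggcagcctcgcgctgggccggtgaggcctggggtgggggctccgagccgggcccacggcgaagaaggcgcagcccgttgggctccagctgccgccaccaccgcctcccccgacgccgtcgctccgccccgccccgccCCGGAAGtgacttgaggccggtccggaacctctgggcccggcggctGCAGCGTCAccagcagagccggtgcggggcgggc

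The core element stood on the plus strand of the PSMG1 window and on the minus strand of the PSME4 window, where it reads in reverse in the printed sequence. PSMA2 had 1 CCAAT box and PSMA5 had 2. The antioxidant response element core was found in 15 of the 51 windows, or 29.4%, against 13.3% of all 35114 windows in the RefSeq table. The ETS site was found in 29.4 against 10.3% and the CCAAT box in 39.2 against 34.6%. Also searched was the core of the amino acid response element (TGATGNAA), found in 1 window, or 1.96% against 3.62%. A match is only a run of letters and says nothing of binding. Of the 40 tested genes with a window, the 15 that held the core had a median log2FC of -0.05 for NRF2 against GFP cells with Cyss and the 25 without it -0.04. For Cyss deprivation in NRF2 cells, these medians were -0.09 and -0.08, and for NRF2 against GFP cells without Cyss -0.15 and -0.14. In the latter, 7 of the 15 genes were lower and 1 higher, and 8 of the 25 were lower and 0 higher. Of all genes, 8.71% were lower and 10.5% higher. Whether the element bears on these responses was not tested.

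The comparison of NRF2 with GFP cells in complete medium asked what exogenous NRF2 does on its own. With Cyss, 0 of 46 proteasome genes were higher and 1 was lower in NRF2 cells by edgeR's test, against 2.06% and 1.28% of all 17449 genes tested, and 10 had an unadjusted p under 0.05. DESeq2's Wald test called 0 in either direction. The lower gene was PSMC6 (chromosome 14, 53173896 to 53195308), an ATPase of the regulatory particle, at 54.3, 49.6 and 48.4 CPM in GFP cells and 43.5, 45.6 and 44.7 in NRF2 cells. The groups did not overlap, and the log2FC was -0.18 (standard error 0.0490, adjusted p = 0.0476 by edgeR's test). When libraries were left out in turn, PSMC6 was called in 1 of 6 fits, the one without replicate 2 of GFP cells with Cyss, and in none with library size scaling, DESeq2's size factors or DESeq2's test. Without Cyss, PSMC6 was at 45.4, 46.3 and 45.7 CPM in GFP cells, close to the NRF2 cells with Cyss.

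The median log2FC of NRF2 against GFP cells with Cyss was -0.04 over the 46 genes and -0.02 over all genes, and 35 of the 46 had a negative sign. Intervals of 44 of the 46 genes lay within 0.32 on either side of 0, and the bound farthest from 0 was 0.38, for PSMC1, whose counts are uncertain. Without overlap between groups, 16 genes were below and 2 above, against 14.8 and 10.7% of all genes.

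**Figure D4:**
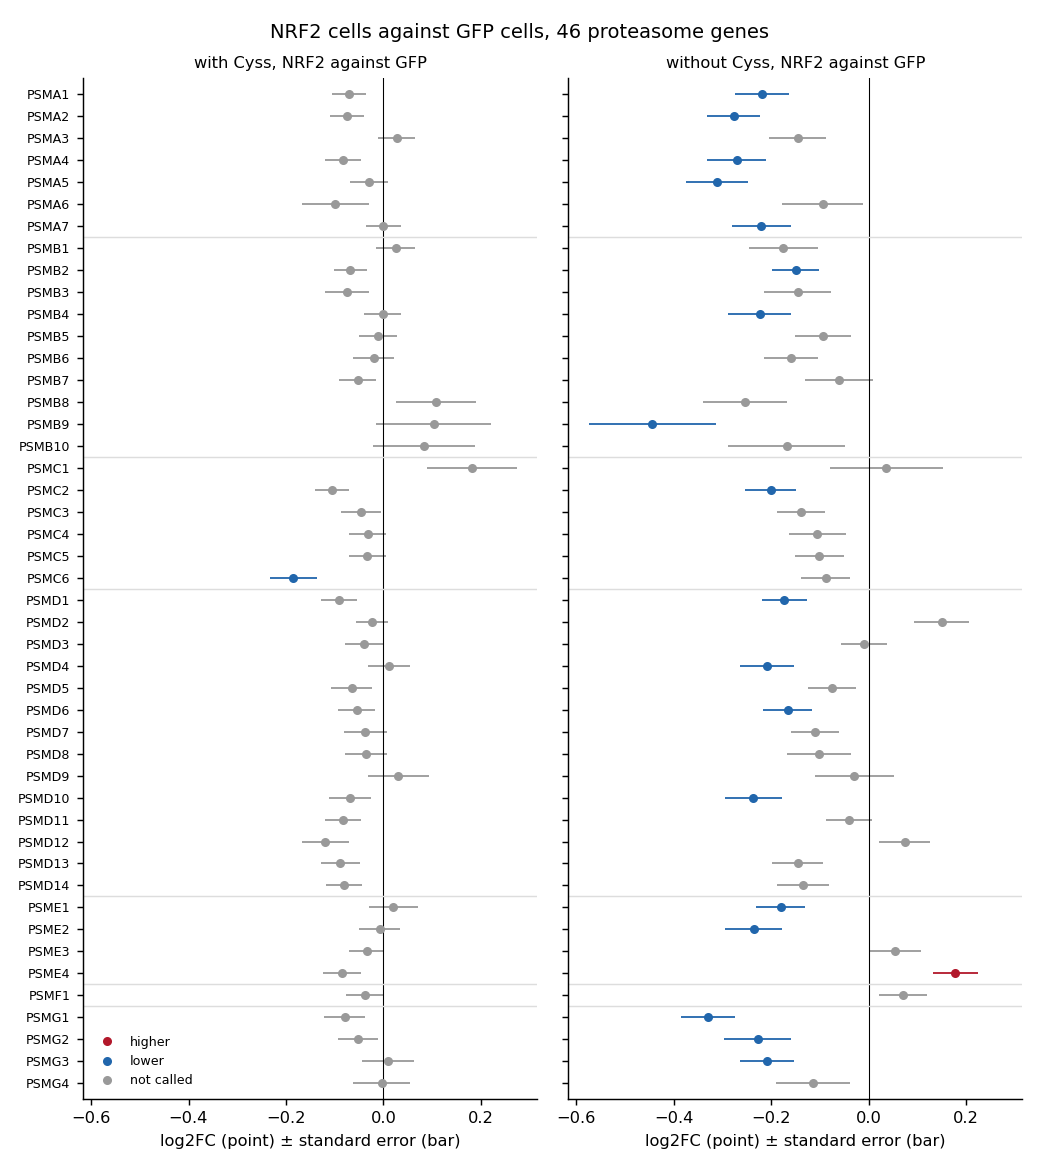
Points give the log2FC of NRF2 against GFP cells (x axis) of 46 proteasome genes (y axis) with Cyss (left) and without Cyss (right), bars the standard error, blue lower, red higher and grey not called at an adjusted p under 0.05. PSMC6 alone was called on the left, and 18 lower genes and PSME4, higher, on the right.

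Without Cyss, the same comparison called more proteasome genes. In NRF2 cells 18 of 46 were lower and 1 higher than in GFP cells, against 8.71% and 10.5% of all 17297 genes tested. The lower genes were 5 of 7 PSMA (PSMA1, PSMA2, PSMA4, PSMA5 and PSMA7), 3 of 10 PSMB (PSMB2, PSMB4 and PSMB9), 1 of 6 PSMC (PSMC2), 4 of 14 PSMD (PSMD1, PSMD4, PSMD6 and PSMD10), 2 of 4 PSME (PSME1 and PSME2) and 3 of 4 PSMG (PSMG1, PSMG2 and PSMG3). PSME4 was the higher one (log2FC 0.18, adjusted p = 0.0182 by edgeR's test). The median log2FC was -0.15 over the 46 genes and -0.02 over all genes, and 40 of the 46 had a negative sign. Without overlap between groups, 27 were below and 1 above, against 19.7 and 18.1% of all genes.

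PSMG1 again led, with a log2FC of -0.33 (standard error 0.0556, adjusted p = 0.00157 by edgeR's test). PSMA5 (chromosome 1, 109941664 to 109969070), an outer ring subunit, was at 119, 121 and 118 CPM in GFP cells and 86.9, 95.2 and 106 in NRF2 cells, a log2FC of -0.31 (standard error 0.0639, adjusted p = 0.00507 by the same test). PSMA4, of the same ring, was at 156, 153 and 142 CPM in GFP cells and 113, 129.6 and 131 in NRF2 cells (log2FC -0.27).

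The groups did not overlap for PSMA5 or PSMA4, with replicate 1 of the NRF2 cells the lowest for each. PSMD10, a chaperone that helps to build the base of the regulatory particle, was at 41.7, 39.8 and 39.7 CPM in GFP cells and 32.3, 34.7 and 35.9 in NRF2 cells (log2FC -0.24). Its groups were apart as well. PSMA2 had a log2FC of -0.28 in this comparison, which shares the NRF2 libraries without Cyss with the comparison of media in NRF2 cells, so that 12 genes lower in both are not independent counts.

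The count of lower genes without Cyss was 3, 3 and 9 without replicates 1, 2 and 3 of GFP cells, and 12, 6 and 28 without replicates 1, 2 and 3 of NRF2 cells. The count of higher genes was 0 without replicate 1 or 2 of GFP cells and 2 without replicate 3 of GFP cells or replicate 1 of NRF2 cells. These counts too are given without the shares of all genes. PSMG1 was called in all 17 other fits and PSMA2 and PSMA5 in 16 of 17. Without replicate 1 of NRF2 cells, the log2FC was -0.28 for PSMG1, -0.24 for PSMA5, -0.21 for PSMA4, -0.20 for PSMD10, -0.22 for PSMA2 and 0.16 for PSME4, each still called, and PSMB2, PSMB4, PSMB9, PSMD6, PSME1 and PSMG2 were not called.

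Whether NRF2 cells answered Cyss deprivation differently from GFP cells was tested on all 12 libraries. PSME4 was higher (difference of log2FC 0.26, standard error 0.0582, adjusted p = 0.00780 by edgeR's test) and PSMA5 and PSMG1 were lower (differences of -0.28 and -0.25, adjusted p = 0.0293 and 0.0324 by edgeR's test), 1 and 2 of 46 genes against 6.04% and 2.62% of all 17674 genes tested. A further 43 genes were not called, with 37 of all 46 differences negative, a median of -0.09 and a median of -0.01 over all genes. PSMB9 had the largest difference, -0.55 (95% interval -0.93 to -0.17, adjusted p = 0.0655), from 83 to 201 reads per library.

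With each library left out in turn, PSME4 was called in 12 of 12 fits, PSMA5 in 4 and PSMG1 in 3. With the trend of log2FC on transcript length removed, PSME4 was not called (0.16, adjusted p = 0.0533 by edgeR's test). The number of lower genes in these fits was 0 without replicate 1 of GFP cells with Cyss, without replicate 1 or 2 of GFP cells without Cyss, without any 1 replicate of NRF2 cells with Cyss or without replicate 2 of NRF2 cells without Cyss. It was 5 without replicate 2 and 1 without replicate 3 of GFP cells with Cyss, 3 without replicate 3 of GFP cells without Cyss, and 1 and 14 without replicates 1 and 3 of NRF2 cells without Cyss. The number of higher genes was 2 without replicate 3 of GFP cells or replicate 1 of NRF2 cells, both without Cyss, and 1 otherwise. With library size scaling 16 genes were lower and 1 higher. Shares of all genes in these fits are not given.

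The catalytic subunits of most cells were called in no comparison. PSMB5, which cuts after hydrophobic residues, was at 133, 142 and 133 CPM in GFP cells with Cyss, 129, 133 and 133 upon deprivation, 136, 132 and 137 in NRF2 cells with Cyss and 113, 127 and 131 in NRF2 cells without Cyss. PSMB6, which cuts after acidic residues, was at 107, 115 and 108, then 109, 112 and 108, then 106, 107 and 113, and in NRF2 cells without Cyss at 91.6, 96.5 and 105 CPM. PSMB7, which cuts after basic residues, was at 142, 152 and 147, then 148, 152 and 144, then 138, 142 and 145, and last at 126, 142 and 158 CPM in the same order of groups.

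For all of these 3 genes, replicate 1 of NRF2 cells without Cyss was the lowest of the 12 libraries. For PSMB7 the group overlapped all others, with a log2FC of 0.00 (95% interval -0.13 to 0.14) for deprivation in NRF2 cells. For PSMB5 and PSMB6 the values were -0.12 (interval -0.23 to -0.01) and -0.15 (interval -0.26 to -0.03), with adjusted p of 0.120 and 0.0607 by edgeR's test.

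Of the immunoproteasome subunits, PSMB9 was at 3.68, 4.48 and 3.58 CPM in GFP cells with Cyss, 4.52, 3.81 and 3.82 upon deprivation, 3.79, 4.11 and 4.75 in NRF2 cells with Cyss and 2.58, 3.17 and 3.20 in NRF2 cells without Cyss. PSMB8 was at 7.47, 8.89 and 8.86, then 8.89, 8.85 and 9.17, then 8.92, 9.37 and 8.92, and last at 7.08, 7.52 and 7.97 CPM. PSMB10 was at 3.50, 3.67 and 3.84, then 3.86, 3.36 and 3.43, then 3.86, 3.60 and 4.20, and last at 3.10, 3.01 and 3.38 CPM.

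NRF2 cells without Cyss were below NRF2 cells with Cyss in all 3 genes, and PSMB9 alone was below every other library. Deprivation in NRF2 cells gave a log2FC of -0.50 for PSMB9 (standard error 0.130, adjusted p = 0.0125 by edgeR's test), -0.27 for PSMB8 (standard error 0.0819, adjusted p = 0.0298 by edgeR's test) and -0.29 for PSMB10 (standard error 0.118, adjusted p = 0.0918 by edgeR's test). PSMB9 and PSMB10 had the widest errors of the proteasome genes tested in this comparison, and PSMC1 followed at 0.107, before PSMB8. PSMB8, PSMB9 and an antisense gene overlap on chromosome 6 while reads were counted without regard to strand. Thus 17.3% of PSMB8 exon bases and 5.2% of PSMB9 exon bases cannot be assigned to 1 gene. For PSMB10, another gene on the same strand overlapped 39.4% of exon bases.

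Genes that share interferon control with the immunoproteasome, an 11-gene list of antigen processing, held 3 lower genes upon deprivation in NRF2 cells, against 9.66% of all genes: TAP1 (log2FC -0.35), which carries peptides into the endoplasmic reticulum, B2M (log2FC -0.22), the light chain of MHC class I, and HLA-C (log2FC -0.24), a heavy chain. The list's median was -0.09 against -0.01 over all genes. For NRF2 against GFP cells with Cyss the 2 called genes were higher (HLA-C and NLRC5, log2FC 0.20 and 0.25), against 2.06% of all genes. Without Cyss 1 was higher (TAPBP, log2FC 0.38) and 1 lower (TAP1, log2FC -0.25), against 10.5 and 8.71% of all genes. TAPBP was at 143.6, 108.2 and 108.1 CPM in NRF2 cells without Cyss, so its log2FC leans on replicate 1. In GFP cells without Cyss it was at 90.4 to 93.4 CPM. The medians of the list in these comparisons were 0.11 and 0.00, and -0.02 upon deprivation in GFP cells.

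A list of 9 subunits, partners and assembly factors whose symbols do not begin with PSM gave 1 called gene upon deprivation in NRF2 cells, the lower PAAF1 (log2FC -0.31), which binds ATPases of the regulatory particle, against 9.66% of all genes that were lower. Without Cyss, PAAF1 (log2FC -0.30), SHFM1 (log2FC -0.23), a small subunit, and TXNL1 (log2FC -0.16), a thioredoxin-like partner, were lower in NRF2 than in GFP cells, 3 of 9 genes against 8.71% of all genes. No gene of this list was called by edgeR's test in GFP cells upon deprivation or between cell populations with Cyss. POMP, which matures the core, was called in no comparison. The list's medians were -0.02 for deprivation in each cell population, -0.04 for NRF2 with Cyss and -0.02 without.

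A list of 19 genes of ubiquitin, its shuttles and the NFE2L1 pathway had calls in both directions. Upon deprivation in NRF2 cells, the genes that rose included DDI2, the protease that activates NFE2L1 (log2FC 0.21), the shuttle proteins UBQLN1 and UBQLN2 (log2FC 0.15 and 0.21) and UBE3C, a ubiquitin ligase bound to proteasomes (log2FC 0.14), and those that fell included RPS27A, which encodes ubiquitin fused to a ribosomal protein (log2FC -0.29).

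NFE2L1 itself was called in no comparison and lay between 216 and 239 CPM in the 12 libraries. For NRF2 against GFP cells without Cyss, DDI2, UBQLN2 and UBE3C were among the higher genes of the list, and RPS27A was lower. In GFP cells 1 was called, NPLOC4, which was lower (log2FC -0.15, against 1.96% of all genes), and none passed edgeR's test between the populations with Cyss. The list's medians were -0.02 upon deprivation in NRF2 cells, -0.03 in GFP cells, -0.02 for NRF2 with Cyss and 0.04 without.

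Response to deprivation moved with transcript length, in proteasome genes and in all genes. In NRF2 cells the median log2FC of all genes was -0.08 for transcripts up to 1000 bases, -0.06 above that and up to 2000, -0.02 up to 4000 and 0.05 above 4000 bases, and in the same classes it was -0.15, -0.12, -0.06 and 0.02 for 11, 19, 10 and 6 proteasome genes. Most proteasome genes thus fell in the shorter classes, and their median was below that of all genes in every class. In GFP cells the order for all genes was opposite, from 0.04 to -0.04, with proteasome medians of 0.01, -0.01, -0.06 and -0.02. Across genes, which are not independent and share libraries, Spearman's rho of log2FC with length in NRF2 cells was 0.38 over 46 proteasome genes and 0.22 over 14510 genes with a length.

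With the trend of log2FC on length removed, an alternative chosen after seeing the data, 10 proteasome genes were lower and 1 higher upon deprivation in NRF2 cells, 7 lower and 1 higher in NRF2 against GFP cells without Cyss, and 1 lower and 0 higher in the difference between responses. The medians then were -0.06, -0.05 and -0.03. Shares and medians of all genes in these fits are not given, so the counts cannot be set against them. The higher gene in NRF2 against GFP cells without Cyss was not called in the main fit. PSMG1 stayed called in both pairwise comparisons and lost its call in the difference between responses (-0.18, adjusted p = 0.0773 by edgeR's test). PSME4 lost its call upon deprivation in NRF2 cells (log2FC 0.10, adjusted p = 0.0813 by edgeR's test), in NRF2 against GFP cells without Cyss (log2FC 0.09, adjusted p = 0.113 by edgeR's test) and in the difference (0.16, adjusted p = 0.0533 by edgeR's test).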

How the data were processed

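Raw counts per gene symbol were deposited by the authors for each of 12 libraries. Per the methods and processing notes, the libraries were sequenced single end, mapped to hg19 with TopHat2 2.1.0 and counted on exons with HTSeq 0.11.2 without regard to strand. The gene annotation is not given in the sources used here. The tables hold 55765 symbols and 5 HTSeq counters, which stayed out of library sizes and took 15.9 to 17.1% of reads. The 523 rRNA symbols were removed.

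For each pair of groups, the 6 libraries were scaled by TMM. Genes entered the test where the mean of normalized counts reached 10 in a group, and p-values from the quasi-likelihood test of edgeR were adjusted over all of them (Benjamini-Hochberg). A call needed an adjusted p under 0.05. The difference of responses was an interaction term over all 12 libraries. CPM were scaled by TMM over 12 libraries. Versions were R 4.3.3, edgeR 4.0.16, limma 3.58.1, DESeq2 1.42.0, Python 3.11.15, matplotlib 3.10.9 and BLAST 2.17.0. Gene positions and transcript lengths were from GENCODE 44 on GRCh37, with lengths for 83.3 to 84.0% of genes tested, and promoters from RefSeq. The procedure was tested on simulated data with 200 changed genes. The changes put in were larger than any reported here for proteasome genes, so that test does not bear on changes of their size.

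The genes and lists were chosen with earlier results of these data known. By rule, library values were given for PSMB5 to PSMB10 and, in each comparison, for up to 5 called genes with the smallest adjusted p, and genes of the lists were named where called. Some genes of the lists are not reported here. PSMD2 was added after its values were seen. Alternatives were other scalings, DESeq2, other filters and thresholds, rRNA genes kept, a replicate block, all 12 libraries in the fit, each library left out and, added later, the length trend removed.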

Additional observations from a re-analysis of the deposited data

Results flagged for a closer look

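The differences between the Cyss responses of NRF2 and GFP cells that passed edgeR's interaction test (adjusted p under 0.05) were looked at again, as effects of 1 contrast that differ between cell populations. Among proteasome genes, PSMA5 differed by -0.28, PSMG1 by -0.25 and PSME4 by 0.26 on the log2 scale. In the lists of related genes, DDI2 differed by 0.32, UBE3C by 0.21, RPS27A by -0.28 and HLA-C by -0.29, the last with an adjusted p of 0.0499 by edgeR's test. Replicate 1 of NRF2 cells without Cyss, with the largest share of reads outside genes, enters each of these values. Without it the differences of PSMA5, PSMG1 and PSME4 were -0.21, -0.20 and 0.24, and PSMG1 no longer passed (adjusted p = 0.0520 by edgeR's test). With the trend of log2FC on transcript length removed, chosen after seeing the data, PSME4 and PSMG1 differed by 0.16 and -0.18 and neither passed (adjusted p = 0.0533 and 0.0773 by edgeR's test).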

How the results depend on the processing

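No called value changed sign under the alternatives run. Counts are given as lower and higher genes. Upon deprivation in NRF2 cells (main 14 and 2), library size scaling gave 26 and 0, an adjusted p under 0.1 with a log2FC above 0.32 gave 2 and 0, and the length trend removed, chosen after seeing the data, left 10 and 1. Leaving out a library gave 5 to 19 and 0 to 3. For NRF2 against GFP cells without Cyss (main 18 and 1), the fold threshold gave 2 and 0, the length trend removed left 7 lower, library size scaling gave 26 lower, and the count of higher genes was 2 with DESeq2's test, with no filter, with an adjusted p under 0.1 and with all 12 libraries in the fit. Leaving out a library gave 3 to 28 and 0 to 2. With Cyss (main 1 and 0), the lower count was 0 with DESeq2's size factors, library size scaling, DESeq2's test, the fold threshold or all 12 libraries in the fit, and 0 to 1 with a library left out. In GFP cells (main 0 and 0), an adjusted p under 0.1 gave 1 lower gene, PSMD11. For the difference of responses (main 2 and 1), the lower count was 4 with DESeq2's size factors, 16 with library size scaling, 7 with DESeq2's test, 6 with no filter and 11 with an adjusted p under 0.1, where 2 were higher. It had 0 higher with the fold threshold and 1 lower and 0 higher with the length trend removed, and leaving out a library gave 0 to 14 and 1 to 2. The causes of these moves were not tested. Except for the fold threshold upon deprivation in NRF2 cells, shares of all genes called under the alternatives are not given, the replicate block included. The counts therefore do not show whether the moves are particular to proteasome genes.

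Replicates share numbers between groups, but deviations of same-numbered libraries correlated at only -0.05 to 0.14, not above 0.1 in every pair, so the numbers were not taken to pair the libraries. With the replicate number as a block, 19 and 2 genes were lower and higher upon deprivation in NRF2 cells, 26 and 2 for NRF2 against GFP cells without Cyss, 1 and 0 with Cyss, 0 and 0 in GFP cells and 6 and 1 for the difference. Own-numbered libraries did not correlate best in every pair.

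Depth limits the genes at a few CPM most. PSMB9 and PSMB10 had 83 to 201 and 98 to 165 reads per library, and the standard errors of their log2FC were 0.105 to 0.131 between pairs of groups, against medians of 0.0398 to 0.0557 over the 46 genes.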
